A study of Mus musculus with 12 samples.

Results

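The genes described here are 10 mouse genes grouped as quiescence and memory transcription factor genes: *Foxo1*, *Foxo3*, *Foxp1*, *Klf2*, *Klf3*, *Klf6*, *Tcf7*, *Lef1*, *Id2* and *Id3*. Not each of them keeps T cells resting or supports their memory. They are 10 of 26180 genes with a curated RefSeq transcript, and a BATF peak was assigned to a gene when its summit lay in the gene body or within 100 kb of it on mm10 (GRCm38). Of 5873 regions called for BATF in Th9 or Th17 cells, 24 met this rule, built from 27 peaks. BATF, an AP-1 family factor of T cells, was immunoprecipitated and the DNA sequenced (ChIP-seq). Naive CD4+ T cells of C57BL6/J mice had been cultured under Th9 conditions (IL-4, IL-2, TGF-β1 and an antibody to IFNγ) or under Th17 conditions (IL-6, TGF-β1, IL-23, IL-1β and antibodies to IFNγ, IL-4 and IL-2). Each cell type had 2 BATF libraries, 2 input libraries and 2 IgG libraries, numbered 1 and 2 for Th9 cells and 3 and 4 for Th17 cells. No age of the mice is in the labels, nor whether the 2 libraries of a cell type came from separate mice or cultures, so the spread between them may be technical. The lists hold no expression values, and the cell types could not be checked against marker genes.

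FOXO factors are active in resting lymphocytes, leave the nucleus when growth factor signals activate AKT, and drive genes of homing and survival. KLF2 keeps T cells small and circulating by inducing the egress receptor gene *S1pr1*, and TCF-1 (the product of *Tcf7*) and LEF-1 maintain the self-renewing pool that memory draws on. ID proteins bind E proteins and keep them off DNA, with ID2 prominent in effector cells and ID3 in memory precursors. BATF binds DNA as a dimer with JUN proteins at AP-1 sites, and with IRF4 or IRF8 at composite sites where an IRF motif lies beside the AP-1 motif.

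With input and IgG combined as the control, the Th9 lists had 1709 peaks (library 1) and 241 (library 2), and the Th17 lists had 4111 (library 3) and 199 (library 4). Fold enrichment in these lists is the ratio of fragments covering the summit, plus 1, to the local background, plus 1, and together with the −log10 p-value it gives back the number of fragments in 98.8% to 99.9% of the peaks of a library. The median peak had between 9 and 13 fragments over the summit, and at the lowest background of a library the weakest peaks called had 7 or 8. The number needed rises with the background and differs between controls, so a site without a peak is not shown to be unbound. Library 2 held 0 of the 27 peaks and library 4 held 1, so nearly all values rest on libraries 1 and 3.

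Klf2 site 1 and Lef1 site 2 are printed because they were called in both cell types, and Foxp1 site 8 because it was the strongest of the 10 *Foxp1* sites, a choice made after its values were seen. Sites are numbered along the direction of transcription of their gene. Each line gives the GRCm38 plus strand within 100 bp of the summit of the strongest peak, as in RefSeq, and capitals mark matches to AP-1 (TGACTCA, or TGAGTCA when read on the other strand), to the cAMP response element (CRE, TGACGTCA), to STAT (TTCNNNGAA) or to an AP-1 site directly behind GAAA.
Klf2 site 1, chr8:72331271-72331471: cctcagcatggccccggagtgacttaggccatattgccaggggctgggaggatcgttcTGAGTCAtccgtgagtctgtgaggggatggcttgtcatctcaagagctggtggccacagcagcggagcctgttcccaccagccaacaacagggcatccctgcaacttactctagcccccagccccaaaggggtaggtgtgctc
Lef1 site 2, chr3:131169244-131169444: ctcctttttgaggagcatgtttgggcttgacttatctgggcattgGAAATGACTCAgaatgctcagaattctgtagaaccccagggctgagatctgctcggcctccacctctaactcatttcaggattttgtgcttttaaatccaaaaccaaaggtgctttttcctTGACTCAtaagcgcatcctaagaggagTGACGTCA
Foxp1 site 8, chr6:99050637-99050837: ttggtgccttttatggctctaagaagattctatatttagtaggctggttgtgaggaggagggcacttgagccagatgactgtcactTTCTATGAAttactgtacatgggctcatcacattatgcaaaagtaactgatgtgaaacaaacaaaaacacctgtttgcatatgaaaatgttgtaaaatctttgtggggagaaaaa

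Further AP-1 matches lay near *Foxp1*, *Klf6* and *Tcf7*, and 31 bases around each of these are printed on the strand that reads TGACTCA, with the match in capitals, so that the flanks can be compared.
Foxp1 site 1, chr6:99433465-99433495, minus strand: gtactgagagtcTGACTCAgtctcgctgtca
Foxp1 site 4, chr6:99276802-99276832, plus strand: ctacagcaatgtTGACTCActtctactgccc
Foxp1 site 6, chr6:99188590-99188620, minus strand: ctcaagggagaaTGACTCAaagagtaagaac
Foxp1 site 9, chr6:98992872-98992902, plus strand: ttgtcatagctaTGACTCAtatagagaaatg
Klf6 site 2, chr13:5769882-5769912, minus strand: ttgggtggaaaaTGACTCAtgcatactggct
Tcf7 site 1, chr11:52299796-52299826, minus strand: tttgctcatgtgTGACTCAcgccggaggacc
The 6 stretches share the 7 bases of the match and are not all followed by the same base.

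**Figure D1:**
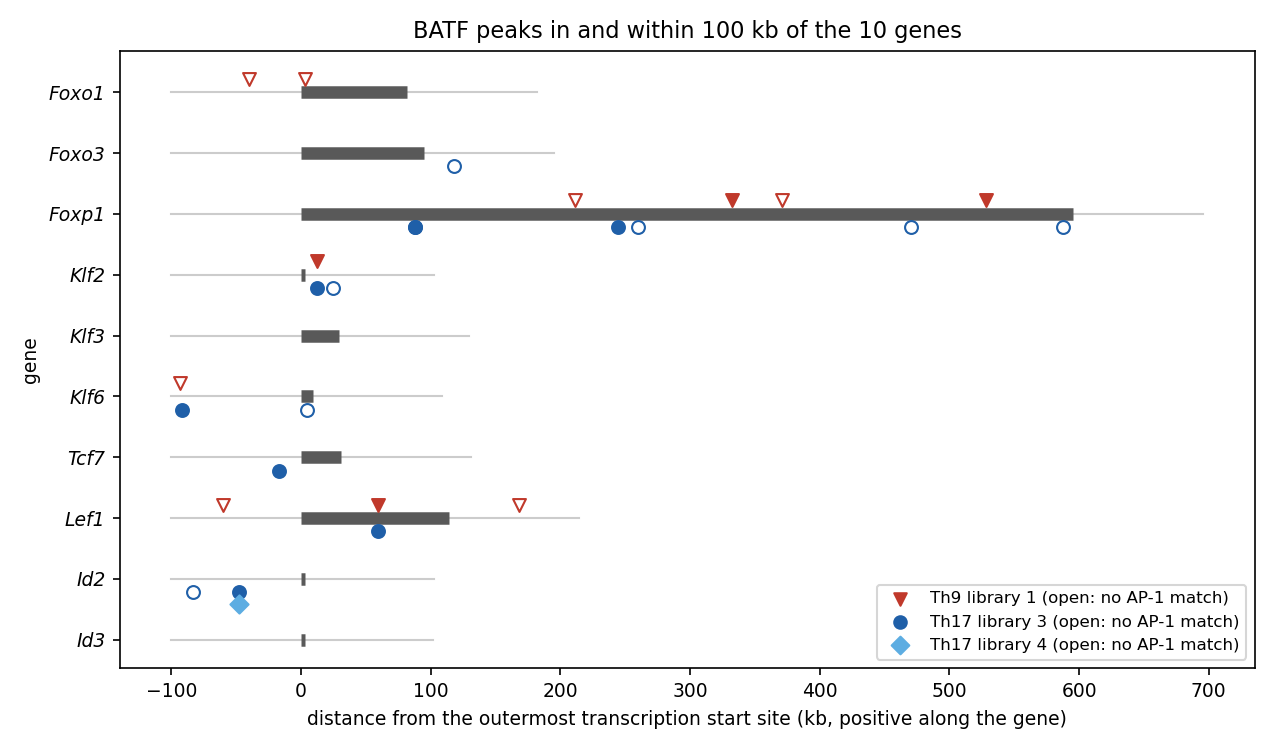
Positions of the 27 BATF peaks along the 10 genes, in kb from the outermost transcription start site, positive in the direction of transcription. Bars are gene bodies, thin lines the 100 kb on either side, markers the libraries, and open markers peaks with no AP-1 match within 100 bp. Foxp1 sites 1 and 2 fall on one marker at this scale, Klf3 and Id3 carry no peak, and no peak sits on a start site.

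Among the FOXO genes, peaks near *Foxo1* came from Th9 cells and the peak near *Foxo3* from Th17 cells. *Foxo1* (chr3:52268337-52350109, plus strand) encodes the FOXO factor that induces *Il7r* and *Klf2*. It had 2 peaks, both in Th9 library 1 and in no other library. Foxo1 site 2 (chr3:52271509-52271746) lay in an intron, 3229 bp from the start site, with 15 fragments over a background of 1.05 and a fold enrichment of 7.81. Its −log10 q of 8.21 ranked 169 of 1709. No AP-1, CRE, STAT or composite match lay within 100 bp of its summit. Foxo1 site 1 (chr3:52228173-52228345) was intergenic, 40065 bp upstream, with 8 fragments and a fold enrichment of 4.53. Repeat-masked sequence made up 93.5% of its window. The nearest Th17 summit lay 240 kb from the *Foxo1* body. *Foxo3* (chr10:42181845-42276695, minus strand), the second FOXO gene of lymphocytes, had 1 peak, in Th17 library 3 (chr10:42158660-42158829). It lay 23047 bp past the end of the gene with 10 fragments and a fold enrichment of 6.21, and the nearest start site was that of the pseudogene *Tdg-ps2*.

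*Foxp1* (chr6:98925342-99520993, minus strand), a forkhead repressor that holds naive T cells in quiescence, had 10 sites, the most of the 10 genes, and all 10 lay in its introns. Of these, 4 were called in Th9 library 1 and 6 in Th17 library 3, and no site was shared. Sharing was rare everywhere, since 3.58% of all 5873 regions were called in both cell types. No other gene of the 26180 had more sites by this rule, but its body of 596 kb gives it a window of 796 kb. At 12.6 sites per Mb, 1.92% of all genes reached its density. Among the 211 genes with a body of 500 kb or more, the median was 2 sites, and the next highest had 8. These comparisons are for the lists with both controls combined. Of the 10 *Foxp1* peaks, 6 were missing from one of the single-control lists, 4 of them from the IgG list and 2 from the input list. Of all peaks, 31.3% in library 1 and 30.7% in library 3 were missing from at least one.

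The strongest *Foxp1* site was Foxp1 site 8 (chr6:99050641-99050830) of Th17 library 3, printed above, with 22 fragments and a fold enrichment of 13.0. By its −log10 q of 19.7 it ranked 69 of 4111. It held a STAT match and no AP-1 match. It was called against input with a fold enrichment of 12.3 but has no peak in the IgG list of the same library. The other Th17 sites of *Foxp1* had between 8 and 13 fragments. Foxp1 site 1 (chr6:99433373-99433551) had 13 fragments, a fold enrichment of 7.90 and an AP-1 match 16 bp from the summit, and lay 1881 bp downstream of an inner start site of the gene. Foxp1 site 2 (chr6:99432795-99432999) had 9 fragments and a fold enrichment of 5.12. Foxp1 site 4 (chr6:99276692-99276864) had 8 fragments and 4.82, site 5 (chr6:99261454-99261713) had 9 fragments and 5.65, and site 10 (chr6:98933260-98933430) had 10 fragments and 6.21.

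The Th9 sites of *Foxp1* had between 10 and 15 fragments. Foxp1 site 6 (chr6:99188483-99188674) had 15 fragments and a fold enrichment of 8.05, and Foxp1 site 9 (chr6:98992783-98992973) had 14 and 7.55. In both, an AP-1 match lay within 1 bp of the summit. Foxp1 site 3 (chr6:99309483-99309744) had 11 fragments and the lowest fold enrichment of the 27 peaks, 4.39, over a background of 1.73. Foxp1 site 7 (chr6:99150315-99150490) had 10 fragments and 5.54. The start site of *Gm51278*, which lies within *Foxp1*, was nearer to sites 6 and 7 than that of *Foxp1*.

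Of the KLF genes, *Klf2* and *Klf6* had peaks in both cell types and *Klf3* had none. *Klf2* (chr8:72319062-72321654, plus strand) had a site called in both cell types, Klf2 site 1, which lay 9717 bp past the end of the gene in intergenic sequence. Th9 library 1 had 19 fragments there (exact Poisson 95% interval 11.4 to 29.7, counting error only), a fold enrichment of 10.1 and rank 42 of 1709. Th17 library 3 had 15 fragments (8.40 to 24.7), a fold enrichment of 9.03 and rank 337 of 4111, and libraries 2 and 4 had no peak. The intervals of the 2 libraries overlapped, but fragment numbers are not scaled for library depth, so this does not compare binding between the cell types. Their summits were 61 bp apart, the peaks shared 163 bp, and both were called against each single control. The AP-1 match lay 39 bp from the summit. Klf2 site 2 (chr8:72343832-72344026), called in Th17 library 3 with 13 fragments and a fold enrichment of 7.90, lay in an intron of the neighbouring *Eps15l1*.

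*Klf6* (chr13:5861489-5870393, plus strand), a KLF gene of many tissues that growth signals induce early, had 3 sites. Klf6 site 3 (chr13:5866219-5866424), in an intron 4780 bp from the start site, had 11 fragments and a fold enrichment of 6.15 in Th17 library 3. The other sites were separate regions under 2 kb apart. Klf6 site 1 (chr13:5767957-5768160), 93393 bp upstream, had 9 fragments and a fold enrichment of 5.03 in Th9 library 1, and Klf6 site 2 (chr13:5769853-5770060), 91552 bp upstream and with an AP-1 match, had 11 fragments and 5.48 in Th17 library 3. For both, the start site of *1700016G22Rik* was slightly nearer. *Klf3* (chr5:64803521-64832901, plus strand), a repressor of the same family, had no peak within 100 kb in any of the 12 lists. The nearest summit lay 152 kb from it, in Th17 library 3, with 17 fragments and a fold enrichment of 10.2.

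The TCF and LEF genes each had an AP-1 site under a peak. *Tcf7* (chr11:52252283-52283014, minus strand) had 1 peak, in Th17 library 3 (chr11:52299722-52299891), in intergenic sequence 16798 bp upstream of the start site. It had 12 fragments, a −log10 q of 7.04 and a fold enrichment of 7.34, and its AP-1 match lay within 1 bp of the summit. No Th9 summit lay closer to *Tcf7* than 492 kb.

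*Lef1* (chr3:131110297-131224357, plus strand) had 3 sites in Th9 cells, of which 1 was shared with Th17 cells. The shared site, Lef1 site 2, was in an intron 59047 bp from the start. Th9 library 1 had 20 fragments there (exact Poisson 95% interval 12.2 to 30.9) over a background of 2.48, and a fold enrichment of 6.04. Th17 library 3 had 15 fragments (8.40 to 24.7) over a background of 1.19, and a fold enrichment of 7.31. The order of fragments and of fold enrichments was thus opposite. The intervals overlapped, but they are for fragment numbers not scaled for library depth and do not compare binding between the cell types. It was the only one of the 24 sites with a CRE match or with an AP-1 match directly behind GAAA, and it had 2 AP-1 matches. This holds for the window around the Th17 summit. Around the Th9 summit there was 1 AP-1 match, and 0 of the 11 Th9 sites had a CRE match within 100 bp of the Th9 summit. Lef1 site 1 (chr3:131049584-131049749), 60604 bp upstream, had 9 fragments and a fold enrichment of 5.03, and Lef1 site 3 (chr3:131278104-131278335), 53762 bp past the gene end and nearest to the start site of *Hadh*, had 10 fragments and 5.54. Both were called in Th9 library 1 and had no AP-1 match.

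*Id2* and *Id3* lay at opposite ends of the range. *Id2* (chr12:25093799-25096092, minus strand) had the strongest peak of all 10 genes, in Th17 cells. Id2 site 2, 47597 bp upstream in intergenic sequence, had 41 fragments in Th17 library 3 (exact Poisson 95% interval 29.4 to 55.6) over a background of 0.771. Its fold enrichment was 23.7 and its −log10 q 49.7, which ranked it 4 of 4111. In Th17 library 4 it had 29 fragments (19.4 to 41.6) and a fold enrichment of 16.2, and its −log10 q of 28.2 ranked 3 of 199. Of the 24 sites, it was the only one that both libraries of the same cell type shared. The summits were 4 bp apart and the peaks shared 237 bp, and both were called against each single control. No Th9 list held a peak there, and the nearest Th9 summit lay 212 kb from the *Id2* body. The difference between the cell types at this site was not tested, since absence from a list gives no value. An AP-1 match lay within 100 bp of the summit, and the start site of *Gm17746* was nearer than that of *Id2*. Id2 site 1 (chr12:25179203-25179375), 83193 bp upstream, had 16 fragments and a fold enrichment of 9.60 in Th17 library 3 and none of the searched motifs. *Id3* (chr4:136143822-136145392, plus strand) had no peak within 100 kb in any of the 12 lists, and its nearest summit in either cell type lay 425 kb away.

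**Figure D2:**
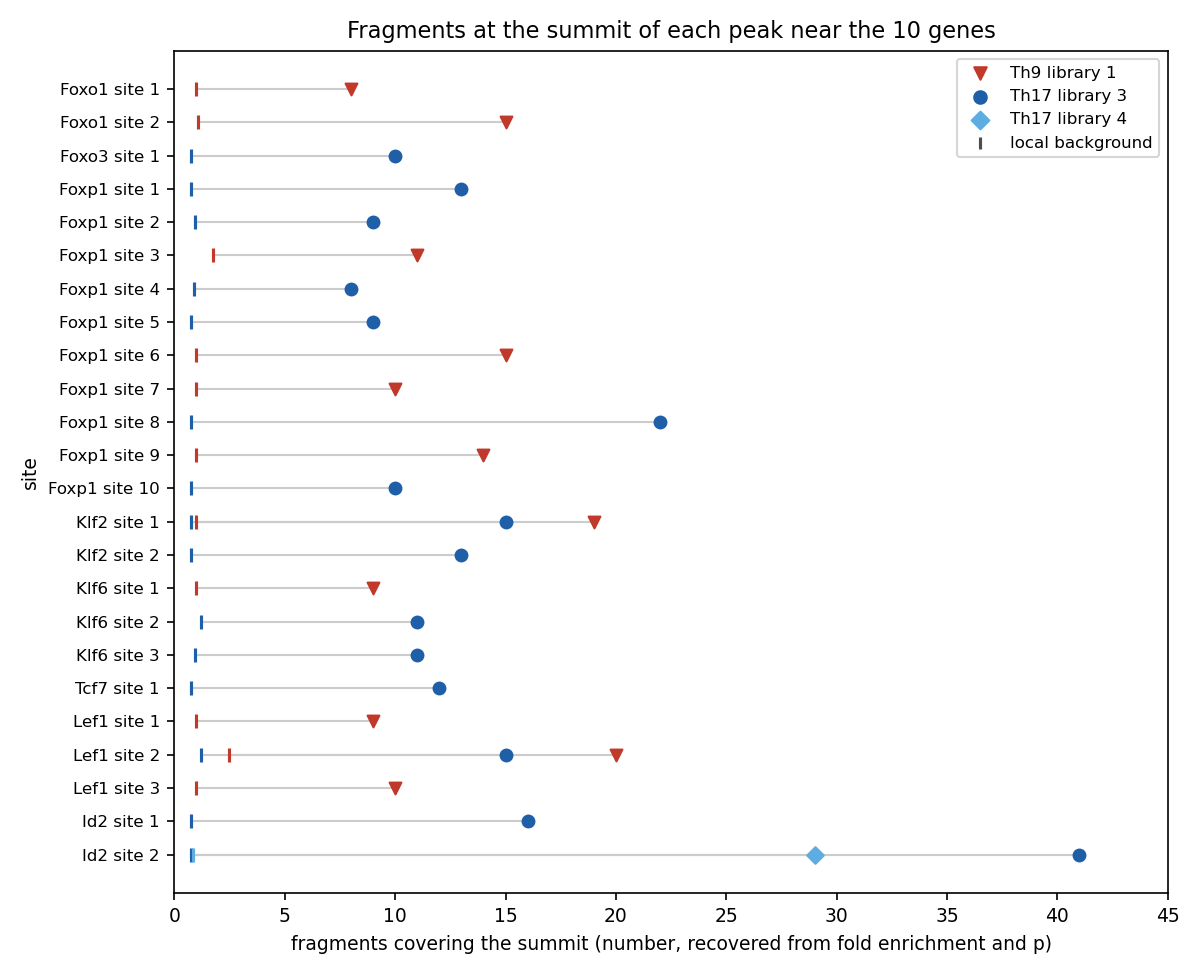
Fragments covering the summit of each of the 27 peaks (x axis, number) for the 24 sites (y axis), with a marker for each library and a short bar for the local background. Id2 site 2 stands highest with 41 and 29 fragments in the Th17 libraries, and the other 25 peaks have between 8 and 22.

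The farthest site inside the limit of 100 kb was Klf6 site 1, at 93.4 kb with 9 fragments. Between 100 kb and 150 kb from the 10 gene bodies lay 3 summits. The nearest was 102 kb past *Klf2* in Th9 library 1, with 8 fragments, and the others were 109 kb and 147 kb past *Klf6* in Th17 library 3, with 14 and 7 fragments.

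To compare the cell types, genes with a peak were counted beside the share of all 26180 genes that met the same rule. In Th9 cells, 5 of the 10 genes had a peak, against 16.9% of all genes, and in Th17 cells 7 of 10, against 34.5%. *Foxp1*, *Klf2*, *Klf6* and *Lef1* had one in both cell types, 4 of 10 genes against 7.93%. *Foxo1* had one in Th9 cells and not in Th17 cells, and *Foxo3*, *Tcf7* and *Id2* in Th17 cells and not in Th9 cells. Of all 26180 genes, 4432 had a Th9 peak, 9027 a Th17 peak and 2075 both. A peak in a single cell type was thus common, and does not set these genes apart. A peak in any library was present at 8 of 10 genes, against 43.5%. By library, it was 5 of 10 in Th9 library 1 (15.1% of all genes), 0 in library 2 (2.82%), 7 in Th17 library 3 (33.9%) and 1 in library 4 (2.15%). Within 10 kb of the gene body, 4 genes had a Th9 peak (4.7%), 4 a Th17 peak (9.64%) and 3 both (1.49%).

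**Figure D3:**
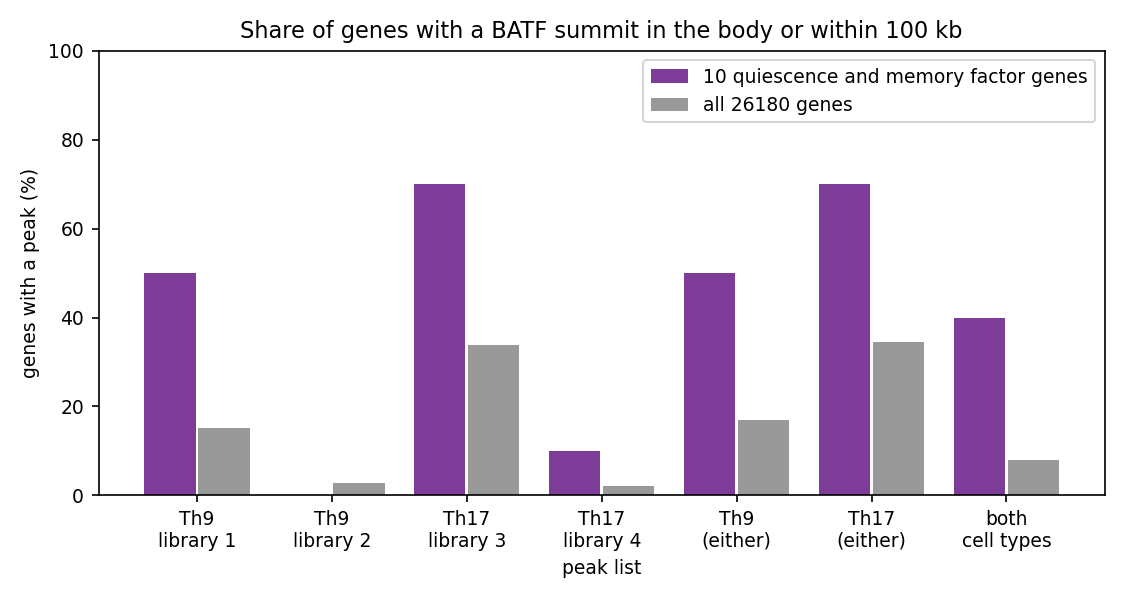
Percent of the 10 genes and of all 26180 genes with a BATF summit in the gene body or within 100 kb, for each library, for either library of a cell type and for both cell types. The bars of the 10 genes are above those of all genes except in Th9 library 2, where none of the 10 has a peak. The bar of Th17 library 4 is *Id2* alone. In libraries 2 and 4, where the shares of all genes are 2.82% and 2.15%, a single gene decides which bar is higher.

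Per library, 5.5 ± 7.78 peaks (SD, n = 2) lay near the 10 genes in Th9 cells and 8 ± 9.90 (SD, n = 2) in Th17 cells. The difference of the means, 2.5, was smaller than either SD. An exact two-sided permutation test gave p = 0.667, and 2 libraries against 2 cannot give a p below 0.333. Per Mb of their windows, the 10 genes had 3.71 Th9 sites, against 0.775 in the windows of all genes, and 5.06 Th17 sites, against 1.75. Without *Foxp1* the values were 3.23 and 4.15. These counts carry no test, since the genes were chosen with earlier results of these data known.

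The AP-1 sequence TGACTCA was present within 100 bp of the summit, on either strand, at 9 of the 24 sites (37.5%, exact binomial 95% interval 18.8% to 59.4%), against 17% of all 5873 regions. In Th9 cells it was 4 of 11 sites (36.4%, 10.9% to 69.2%) against 15.7%, and in Th17 cells 7 of 15 (46.7%, 21.3% to 73.4%) against 19.1%. The intervals are wide, and sites of one gene are not independent of each other. With a window of 50 bp the Th17 share was 26.7%, and with input alone as control the Th9 share was 22.2%. In Th9 library 1 the median fold enrichment was 5.54 both for the peaks near these genes and for all peaks. In Th17 library 3 it was 7.31 for the peaks near these genes, against 5.65 for all peaks. A −log10 q of 5 or more was reached by 14 of the 24 sites, against 37.3% of all regions. Among regions of that strength, 7 of the 14 sites had an AP-1 match against 30.9% of all, and below it 2 of 10 against 8.66%. A STAT match was present at 4 sites (16.7%), against 8.87% of all regions, and a CRE match at 1, against 0.221%. The adjacent composite, GAAA directly before TGANTCA, was present at 1 site, against 0.971%. It overlaps the AP-1 match there. The spaced composite, in which TTTC and TGACT are 4 bases apart, was present at 0 of 24, against 1.69%, and 0 of 24 allows a share of up to 14.2% by the exact interval. These matches describe letters in a window and do not show a bound factor.

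Of the 24 sites, 14 lay in introns and 10 between genes, and none was within 1000 bp of a start site or in an exon. Among all regions, 3.32% were at a start site, 2.59% in an exon, 41.4% in an intron and 52.7% between genes. Of the 14 intronic sites, 10 were those of *Foxp1*, whose body is 596 kb long, so the intron share rests mostly on this gene. For 16 of the 24 sites, the nearest start site was that of the gene itself. Of these 16, 8 were *Foxp1* sites, where inner start sites of the gene also counted. This count has no share over all regions to stand beside it. Sites called in 2 or more libraries were 3 of 24, against 4.73% of all regions, and sites called in both cell types 2 of 24, against 3.58%. The median share of repeat-masked sequence was 10.9%, against 13.4%, and the median GC content 44.8%, against 41.3%.

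The input-only and IgG-only lists gave a check of each peak. Of the 27 peaks, 19 were present in both single-control lists, 4 had no peak against input and 4 had none against IgG. In libraries 1 to 4, between 30.7% and 32.2% of all peaks lacked a peak against at least one control. Near the 10 genes it was 3 of 11 peaks in library 1 and 5 of 15 in library 3, which is near that share. The peaks concerned were mostly those of *Foxp1*, where 6 of 10 were lost against a single control, compared with 2 of the 17 peaks of the other genes, both at *Klf6*. Foxp1 sites 2, 4, 7 and 8 had no peak against IgG, and Foxp1 sites 6 and 9 and Klf6 sites 2 and 3 none against input. Every site at *Foxo1*, *Foxo3*, *Klf2*, *Tcf7*, *Lef1* and *Id2* was called against each control.

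**Figure D4:**
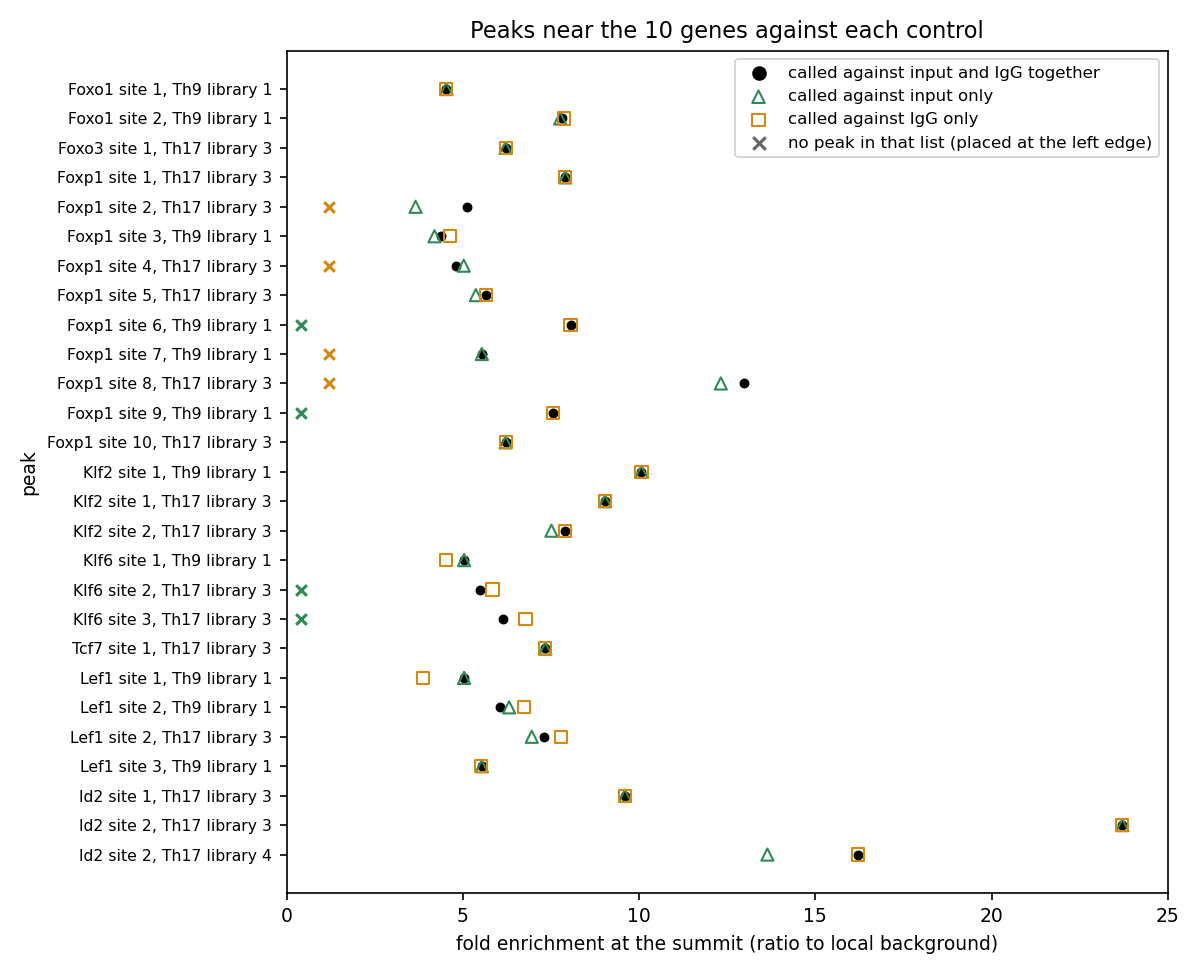
Fold enrichment at the summit of the 27 peaks (x axis, ratio to the local background) when called against input and IgG together (points), input alone (triangles) or IgG alone (squares), with crosses at the left edge where that list has no peak. Crosses appear at 6 Foxp1 peaks and 2 Klf6 peaks, and the Id2 site 2 peak of Th17 library 4 falls from 16.2 to 13.6 against input alone.

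Relatives of these factors, and regulators and targets of quiescence, were examined by the same rule. Of 16 family relatives, 3 had a Th9 peak, 8 a Th17 peak and 2 both, and 7 had none. Of 15 quiescence regulators and targets, 3 had a Th9 peak, 7 a Th17 peak and 2 both, and 7 had none. The shares of all genes are the 16.9%, 34.5% and 7.93% given above. Among the relatives, *Foxp2*, a forkhead gene best known from the brain, *Tcf12*, which encodes the E protein HEB, and *Id1* had a peak in 2 libraries each. The strongest of these was in *Foxp2*, with 14 fragments and a fold enrichment of 7.55 in Th9 library 1. *Bcl2*, the survival gene downstream of IL-7, had peaks in libraries 1, 2 and 3, the strongest in Th9 library 2 with 20 fragments and a fold enrichment of 11.2. *Ctla4*, which encodes an inhibitory receptor, had peaks in libraries 2, 3 and 4, the strongest in Th17 library 3 with 16 fragments and a fold enrichment of 9.60, at 4.46 kb from its start site. None of the strongest peaks of these 5 genes had an AP-1 match, which 17% of all regions have. Their other peaks are not described here.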

How the data were processed

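BATF, input and IgG libraries of Th9 and Th17 cells gave 12 peak lists, 3 for each of 4 BATF libraries. Read pairs were mapped by the authors to mm10 (bowtie2), and MACS2 was run on whole fragments with duplicates kept and a q threshold of 0.01. Per the submitters' processing notes the tools included MACS2 2.1.0 and Trim Galore 0.4.3, and no filter of problem regions is given in the sources used here. For each peak, the deposited values are the fold enrichment (a ratio to local background), the −log10 p and the −log10 q. The control behind each list is given by the list's name alone. Total reads are not in the lists, so precision was judged from fragments over the summit.

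Lists with both controls combined were the main ones. Whole fragments k and background λ were solved from fold = (k + 1)/(λ + 1) and the Poisson tail, with a tolerance of 0.0005. Kept duplicates may include PCR copies, so all intervals cover counting error only. Regions sharing 1 bp were merged, and a region counted for a cell type if called in either library. Gene bodies and start sites were those of curated transcripts in the RefSeq annotation (release 108.20200622), and the sequences from the GRCm38 assembly of RefSeq. Motifs were searched on both strands within 100 bp of the summit. The sequence of 1 site is not reported here.

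All 10 genes were described with every peak, related genes were named where 2 or more libraries had a peak, and other genes where their start site was nearest to a peak or, for *Eps15l1*, after it was seen that its intron held one. The genes, lists and motifs were chosen with earlier results of these data known. Counts were set beside those of all genes or regions without a test, and peaks per library were compared by an exact permutation test. Alternatives for the peaks were the single controls, a minimum −log10 q of 5, calls in both libraries, each library left out and equal numbers of top peaks. For the genes they were limits of 50 kb and 10 kb, or sites with the gene's start site as the nearest. For shared sites they were 50% reciprocal overlap and summits within 200 bp. For motifs they were a 50 bp window, the whole peak and the looser TGANTCA. GENCODE vM21 gene bodies were added as an alternative after the data were seen. The scripts were tested on simulated data. Calculations ran in Python 3.11.15 (scipy 1.17.1, numpy 2.4.6, pandas 2.3.3, matplotlib 3.10.9).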

Additional observations from a re-analysis of the deposited data

Results flagged for a closer look

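One peak lies outside the lists called against both controls together. In Th17 library 3, the list called against IgG alone held a further *Foxp1* peak (chr6:99274776-99274947) with a fold enrichment of 5.65, 9 fragments and an AP-1 match within 100 bp of the summit, in an intron 246139 bp from the start site. It is singled out because it lies outside the lists that gave the main values, and of the alternatives only the one with IgG alone as control counts it. Neither the list against both controls nor the one against input alone has a peak there.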

How the results depend on the processing

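The difference of 4 sites between Th17 and Th9 cells changed with the libraries used. With each library left out in turn it ranged from -10, without Th17 library 3, to 15, without Th9 library 1. Over the same settings, the genes with a Th9 peak ranged from 0 to 5, with a Th17 peak from 1 to 7 and with both from 0 to 4, shared sites ranged from 0 to 2, and the Th17 AP-1 share from 46.7% to 100%, the last resting on 1 site. With the 199 strongest peaks of every library, the difference was -1, with 3 Th9 genes, 2 Th17 genes and 1 with both. With calls in both libraries of a cell type required, it was 1, with 0 Th9 genes, 1 Th17 gene (*Id2*) and 0 with both. Within 10 kb it was 2, with 4 Th17 genes. With only sites whose nearest start site was that of the gene, it was 4, with 4 Th9 genes, 5 Th17 genes and 3 with both. At a −log10 q of 5 or more, the Th9 AP-1 share was 80%, of 5 sites. The Th17 AP-1 share was 26.7% with a motif window of 50 bp, the Th9 share was 22.2% with input alone as control, and the site difference was 6 at a −log10 q of 5 or more. Of 83 alternative values, 2 changed direction and 18 moved past the tolerance, which was the exact 95% interval for a share and 1.5 times for a count. The other 63 include the 26.7%, the 22.2%, the difference of 6 and the values by nearest start site. GENCODE gene bodies changed no count. No paired analysis was possible because no replicate number occurs in both cell types. With a median of 9 to 13 fragments at a summit, weak sites are near the limit of detection, and a gene without a peak may be bound below it.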

Other observations

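Of the regulators and targets of quiescence, genes with peaks in 1 library were not named by the rule, and 2 of them were picked after their values were seen. *Ccr7*, which encodes the receptor that brings resting T cells into lymph nodes, had a peak in Th9 library 1 with 22 fragments and a fold enrichment of 11.6, at 49.0 kb upstream of its start site. That is more fragments than at any Th9 peak of the 10 genes, where the highest was 20. *Il7r*, the IL-7 receptor gene that FOXO1 induces, had 2 sites in Th17 library 3, the stronger with 14 fragments and a fold enrichment of 8.47, at 32.5 kb upstream. Neither strongest peak had an AP-1 match, which 17% of all regions have.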
